A study of Homo sapiens with 12 samples.

Results

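Metallothioneins, their transcription factor MTF1 and the zinc exporter SLC30A1 (ZnT1) were described in Caco-2, an established line from a human colon carcinoma whose cells can differentiate towards enterocytes. The set holds 8 genes of the 54553 in the deposited tables, taken by name: MT1X, MT2A, MT1E, MT1F, MT1G, MT1M, MTF1 and SLC30A1. They were selected on their estimated counts across the 4 groups, with earlier results of the same libraries known. Their levels and fold changes are therefore given as a description, without a printed p-value. Calls at a p-value threshold are listed for them as a description too, and nothing is read from those calls. Total RNA was sequenced in 12 libraries, 4 groups of 3, all from cells labelled wild type. One medium was rich, with 1 g/L glucose, 2 mM glutamine and 20% serum on an EMEM base. The other was depleted for 48 h, with 0.1 g/L glucose, 0.2 mM glutamine and 1% serum on a DMEM base, so the base medium and the serum changed together with the nutrients. In each medium, cells that were not yet confluent received vehicle or 100 nM bafilomycin A1 for 48 h. Bafilomycin A1 blocks the vacuolar proton pump that acidifies lysosomes. Nothing in the labels says that the 3 samples of a group came from separate cultures, so any p-value measures how these samples vary, and that variation may be technical.

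Metallothioneins are small cysteine-rich proteins that bind zinc, copper and cadmium and buffer free zinc in the cell. When zinc rises, it loads the zinc fingers of MTF1, which then binds metal response elements in the promoters of metallothionein genes and of SLC30A1. The SLC30A1 protein moves zinc out of the cell, in enterocytes across the basolateral membrane, while transporters of the SLC39 (ZIP) family bring zinc into the cytosol.

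The 6 metallothionein genes lie within one cluster on chromosome 16 (coordinates from RefSeq, GRCh38.p14, the strand from GENCODE). From the start of the cluster they are MT2A at chr16:56608584-56609497, MT1E at chr16:56625781-56627112, MT1M at chr16:56632659-56633981, MT1F at chr16:56657959-56659303, MT1G at chr16:56666730-56668065 and MT1X at chr16:56682470-56684196. MT1G is on the minus strand and the other 5 are on the plus strand. MTF1 (chr1:37809574-37859592) and SLC30A1 (chr1:211571568-211579161) are both on the minus strand of chromosome 1. Each of the 6 metallothionein coding sequences is 186 bases long. The coding sequences of the 4 members with enough reads to be tested are printed to show how little separates the copies, with capitals at the 29 positions that differ among these 4 (GENCODE transcripts, 5′ to 3′).

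MT2A coding: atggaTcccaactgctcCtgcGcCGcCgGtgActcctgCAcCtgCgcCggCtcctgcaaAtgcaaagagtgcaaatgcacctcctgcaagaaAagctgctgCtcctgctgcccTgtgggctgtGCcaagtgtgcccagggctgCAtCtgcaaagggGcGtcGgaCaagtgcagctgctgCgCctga
MT1X coding: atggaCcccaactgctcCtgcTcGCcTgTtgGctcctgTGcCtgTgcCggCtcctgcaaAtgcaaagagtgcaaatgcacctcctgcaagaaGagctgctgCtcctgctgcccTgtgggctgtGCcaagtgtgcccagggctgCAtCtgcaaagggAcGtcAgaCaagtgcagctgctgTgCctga
MT1E coding: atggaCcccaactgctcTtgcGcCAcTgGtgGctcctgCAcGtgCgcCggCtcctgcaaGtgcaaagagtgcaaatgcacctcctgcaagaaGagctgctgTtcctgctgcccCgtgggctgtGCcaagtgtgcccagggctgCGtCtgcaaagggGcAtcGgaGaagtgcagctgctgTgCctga
MT1F coding: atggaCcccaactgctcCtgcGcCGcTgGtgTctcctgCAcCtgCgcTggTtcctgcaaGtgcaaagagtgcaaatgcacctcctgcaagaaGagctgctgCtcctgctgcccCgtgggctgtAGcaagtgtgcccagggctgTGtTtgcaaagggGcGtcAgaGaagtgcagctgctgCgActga

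Pairs among the 6 coding sequences were between 88.7% and 95.2% identical. MT1X and MT2A differed at 14 bases and MT2A and MT1G at 9. Along the whole transcript, 20.5% of the 31-base windows of MT1X also occurred in another metallothionein gene, against 12.2% for MT2A, 15.3% for MT1E, 8.33% for MT1F, 31.4% for MT1G and 18.8% for MT1M. Of the 50-base windows, 16.0% of those of MT1X were shared, 4.9% for MT2A, 5.3% for MT1E, 3.6% for MT1F, 20.2% for MT1G and 7.1% for MT1M. A read that lies wholly in shared sequence cannot be placed in 1 copy by its sequence. To that extent the split of reads between copies is uncertain. The deposited estimates were whole numbers in all but 2 of the 72 metallothionein values (within 0.005). The sum over the family, which does not depend on that split, is given beside the single genes.

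Metal response elements share a short core, and 2 forms of it, TGCACNC and TGCGCNC, were searched on both strands in the 250 bases before each start site (RefSeq promoter table, GRCh38.p14). The table held 4 of the 8 genes. MT2A had 7 matches, 5 of TGCACNC and 2 of TGCGCNC, a number reached by 0.031% of the 35116 promoters in the table. MT1X had 4 matches, 2 of each form, which 0.37% of promoters reached. SLC30A1 had 1 match and MTF1 had none, and 24.8% of all promoters had at least 1. No match overlapped another. The sequences of the 3 genes with a match are printed in the direction of the gene with the matches in capitals, written as GNGTGCA or GNGCGCA where they lie on the opposite strand. A match is a description of the letters and no measurement of binding.

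MT2A upstream, chr16:56608334-56608583, plus strand: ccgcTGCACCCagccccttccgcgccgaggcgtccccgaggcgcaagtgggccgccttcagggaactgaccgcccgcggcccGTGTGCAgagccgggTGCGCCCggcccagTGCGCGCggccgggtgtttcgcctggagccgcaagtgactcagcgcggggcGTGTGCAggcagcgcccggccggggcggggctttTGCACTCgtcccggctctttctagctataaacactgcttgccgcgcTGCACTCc
MT1X upstream, chr16:56682220-56682469, plus strand: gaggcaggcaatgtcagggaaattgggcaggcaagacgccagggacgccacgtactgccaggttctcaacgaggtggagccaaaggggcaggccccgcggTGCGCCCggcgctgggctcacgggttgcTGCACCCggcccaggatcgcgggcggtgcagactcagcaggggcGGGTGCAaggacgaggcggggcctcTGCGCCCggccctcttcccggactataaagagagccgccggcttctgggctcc
SLC30A1 upstream, chr1:211579162-211579411, minus strand: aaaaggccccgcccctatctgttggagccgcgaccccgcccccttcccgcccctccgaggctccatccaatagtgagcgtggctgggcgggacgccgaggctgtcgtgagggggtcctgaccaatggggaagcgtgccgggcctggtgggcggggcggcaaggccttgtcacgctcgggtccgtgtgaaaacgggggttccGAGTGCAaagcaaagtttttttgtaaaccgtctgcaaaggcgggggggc

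The libraries held 12969814 to 51649213 reads assigned to genes. The shallowest was replicate 1 of rich vehicle, and each of the other 11 had 33859998 or more. In that library gene length exceeded effective length by a median of 246 bases, a gap that widens with longer fragments, against 167 to 187 bases elsewhere. Replicate 1 of rich vehicle and replicate 3 of rich bafilomycin stood apart from their groups over all genes. The latter had Spearman correlations of 0.985 to 0.990 with the 3 depleted vehicle libraries and of 0.985 with both others of its own group, so by expression it lay at least as close to another treatment group as to its own. Of the 10 intestinal epithelial markers, 7 averaged at least 1 CPM, among them VIL1, CDH1, CDX2 and HNF4A, while KRT20, CDX1 and LGALS4 did not. The epithelial markers summed to 6860 to 9655 CPM in rich vehicle and 3137 to 3586 CPM in depleted bafilomycin libraries. Most of that gap lay in KRT8 (means of 4286 and 701 CPM) and KRT18 (1538 and 268 CPM). EPCAM (647 and 300 CPM) and VIL1 (292 and 166 CPM) were lower too. CDH1 (1392 and 1395 CPM), CDX2 (70.8 and 80.4 CPM) and HNF4A (319 and 422 CPM) were not lower. Of the 8 fibroblast-list genes, 4 averaged at least 1 CPM, PDGFRA among them, and the list's sum was 170 to 340 CPM in rich vehicle, 116 to 187 CPM in rich bafilomycin, 87.0 to 140 CPM in depleted vehicle and 61.0 to 99.0 CPM in depleted bafilomycin. Of the 7 immune-list genes, 3 averaged at least 1 CPM (CD14, LYZ and CD68), and the list summed to 13.2 to 24.8 CPM in rich vehicle, 12.6 to 22.1 in rich bafilomycin, 7.42 to 11.4 in depleted vehicle and 6.38 to 8.14 in depleted bafilomycin. Of the 5 endothelial-list genes PECAM1 alone averaged 1 CPM, with list sums of 7.18 to 14.7, 4.74 to 6.84, 7.46 to 10.1 and 3.16 to 4.54 CPM in the same order. Within these lists PTPRC, CD3E, TYROBP, THY1 and KDR had group means of at most 0.155 CPM. Other members were higher, with group means of 21.8 to 28.4 CPM for COL1A1, 3.43 to 17.8 for PDGFRB and 0.331 to 3.98 for COL3A1. CDH5 had 0.0868 to 1.49 CPM and VWF 0.484 to 1.49 CPM. The part of the group differences in marker levels in the results was not tested. In bulk RNA fewer cells of a type and less RNA per cell cannot be told apart.

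Levels are given in CPM, counts scaled to library size with TMM factors. All metallothionein genes were measured at a very low level. The 21 listed genes of the family, pseudogenes included, held 47 to 331 reads per library. The 6 named members carried 1748 of these reads over all libraries and the other 15 genes carried 100. Of these 15, 9 had no read in any library and none averaged 1 CPM. Their highest value in 1 library was 10 reads, reached by MT1A and by the pseudogene MT1P1. The level that 3 reads stand for, taken as the limit of detection for counting error only, was 0.0581 to 0.231 CPM. On the per-length scale (TPM), the medians over the 12 libraries were 5.46 for MT1F, 5.27 for MT1X, 3.45 for MT2A, 1.19 for MT1E, 0.0535 for MT1G and 0 for MT1M. The median of SLC30A1 was 22.3 TPM and that of MTF1 was 2.10 TPM, so by median the exporter's transcript stood above each metallothionein transcript per unit length. Effective lengths differed widely, at 177 to 234 bases for MT1X and 5669 to 6016 bases for SLC30A1. How well such short transcripts were recovered was not tested. MT1G and MT1M did not pass the filter on low counts, which left 6 of the 8 genes in the tests.

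The exporter SLC30A1 had a higher level in depleted than in rich medium. It measured 118, 85.2 and 70.7 CPM in the 3 rich vehicle libraries and 165, 188 and 133 CPM in the 3 depleted vehicle libraries. Every depleted vehicle library lay above every rich vehicle library. With bafilomycin A1 it measured 104, 96.0 and 105 CPM in rich medium and 132, 147 and 116 CPM in depleted medium. These groups did not overlap either. The group means were ordered depleted vehicle (162 ± 27.4 CPM, SD, n = 3), depleted bafilomycin (132 ± 15.5), rich bafilomycin (102 ± 5.01) and rich vehicle (91.3 ± 24.3). The first pair of neighbours in that order overlapped, as did the last pair, and the middle pair did not.

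Depletion changed SLC30A1 by a log2 fold change of 0.83 ± 0.19 (SE) in vehicle and 0.37 ± 0.19 under bafilomycin A1. Bafilomycin A1 changed it by 0.16 ± 0.19 in rich medium and by -0.30 ± 0.19 in depleted medium. In both media the vehicle and bafilomycin groups overlapped. Without replicate 1 of rich vehicle, whose 118 CPM was the highest rich-medium value, the depletion value in vehicle was 1.05. On the TPM scale the 2 vehicle groups overlapped, at 32.5, 21.5 and 10.1 TPM in rich medium against 33.5, 30.1 and 23.2 TPM in depleted medium. Replicate 1 of rich vehicle again held the highest rich-medium value, and the fit with the effective length as an offset gave a depletion value of 0.87 in vehicle.

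The transcription factor MTF1 moved within a narrow range in all groups. It measured 18.3, 16.7 and 15.9 CPM in rich vehicle, 13.1, 16.0 and 12.5 CPM in rich bafilomycin, 13.1, 13.3 and 11.9 CPM in depleted vehicle and 17.7, 17.5 and 14.7 CPM in depleted bafilomycin libraries. Depleted vehicle libraries lay below all rich vehicle libraries and below all depleted bafilomycin libraries. The order of the means was rich vehicle (17.0 ± 1.23 CPM), depleted bafilomycin (16.6 ± 1.64), rich bafilomycin (13.9 ± 1.85) and depleted vehicle (12.8 ± 0.76), and each pair of neighbours overlapped. The log2 fold change on depletion in vehicle was -0.41 ± 0.17 (SE), and that of bafilomycin A1 in depleted medium was 0.38 ± 0.17. In rich medium bafilomycin A1 gave -0.29 ± 0.17, with overlapping groups. The response to bafilomycin A1 in depleted medium exceeded that in rich medium by 0.67 ± 0.23.

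**Figure D1:**
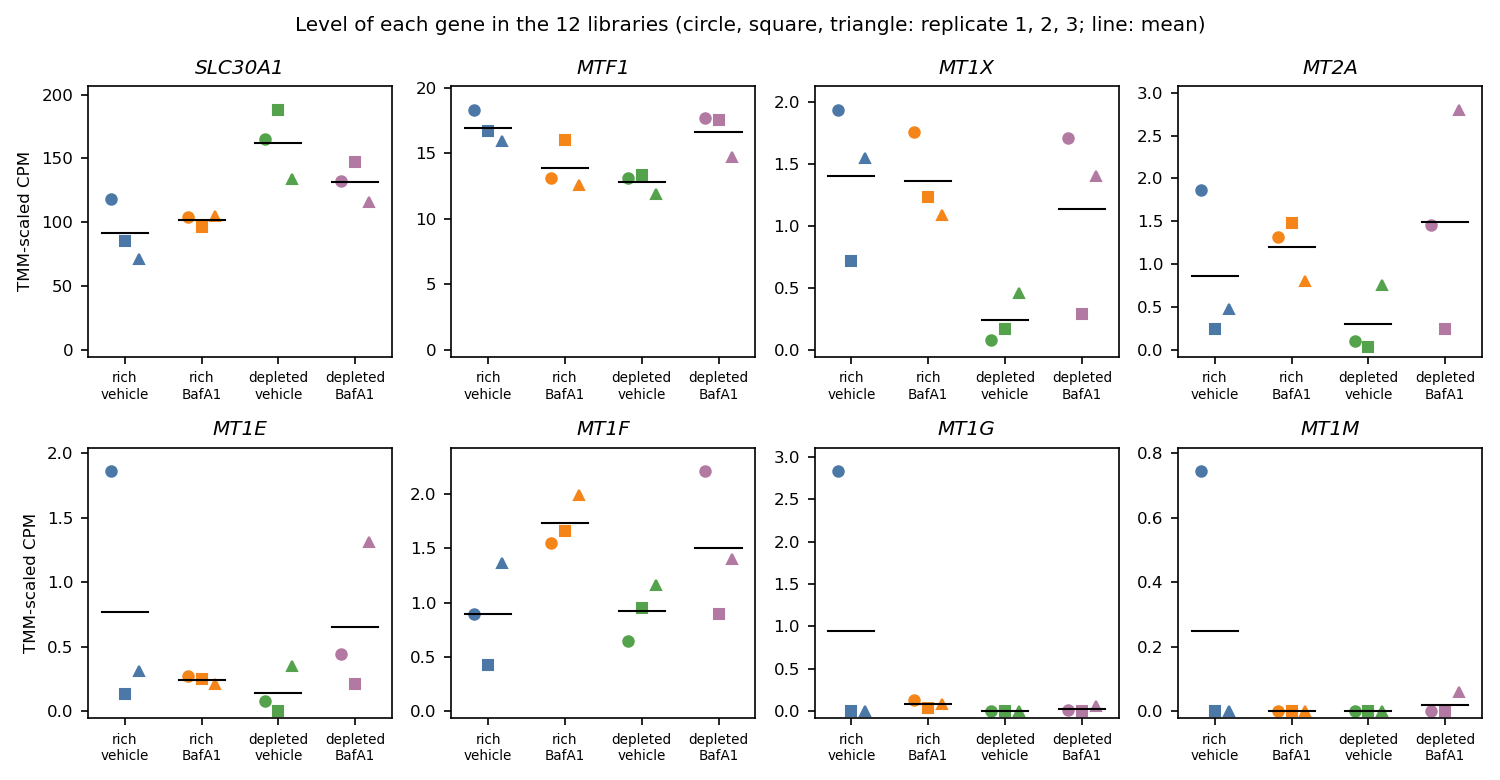
Level of each of the 8 genes in TMM-scaled CPM (vertical axis, linear, a scale per gene) in the 4 groups (horizontal axis). Each symbol is a library (circle, square and triangle for replicates 1, 2 and 3) and the line is the group mean of 3. SLC30A1 lies between 70.7 and 188 CPM, while no metallothionein gene exceeds 2.83 CPM, and MT1G and MT1M reach their highest value in replicate 1 of rich vehicle.

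MT1X, a type 1 metallothionein with reads in every library, had its lowest levels in depleted medium without bafilomycin A1. It held 26, 27 and 59 estimated reads in the rich vehicle libraries, or 1.93, 0.716 and 1.55 CPM. The depleted vehicle libraries held 4, 6 and 17 reads, or 0.0813, 0.168 and 0.460 CPM, all below the lowest rich vehicle library. Rich bafilomycin libraries held 77, 60 and 41 reads (1.76, 1.23 and 1.09 CPM), within the range of rich vehicle. Depleted bafilomycin libraries held 93.0, 12 and 47 reads (1.71, 0.284 and 1.40 CPM), and the library with 12 reads lay inside the depleted vehicle range. The log2 fold change was -2.55 ± 0.71 (SE) on depletion in vehicle and 2.28 ± 0.69 for bafilomycin A1 in depleted medium. It was -0.01 ± 0.63 for bafilomycin A1 in rich medium and -0.26 ± 0.62 for depletion under bafilomycin A1.

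MT2A, a broadly expressed metallothionein, was spread more widely between replicates than MT1X. It held 25, 9 and 18 reads in rich vehicle libraries (1.86, 0.239 and 0.471 CPM) and 58, 72 and 30 in rich bafilomycin libraries (1.32, 1.48 and 0.797 CPM). In depleted vehicle it held 5, 1 and 28 reads (0.102, 0.0279 and 0.757 CPM), and in depleted bafilomycin 79, 10 and 94 (1.45, 0.237 and 2.80 CPM). The 2 groups overlapped in each of the 4 comparisons except that all rich bafilomycin libraries lay above all depleted vehicle libraries, which differ in both medium and treatment. The log2 fold change was -1.41 ± 1.03 (SE) on depletion in vehicle and 2.34 ± 0.99 for bafilomycin A1 in depleted medium, the same signs as MT1X. It was 0.63 ± 0.96 for bafilomycin A1 in rich medium and 0.31 ± 0.90 for depletion under bafilomycin A1, where MT1X had negative values, each smaller than its SE. The first 2 values turned on single libraries. Without replicate 1 of rich vehicle the depletion value was -0.29, and without replicate 3 of depleted vehicle it was -3.47 and the bafilomycin A1 value in depleted medium was 4.40.

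MT1E, another type 1 gene, took most of its rich vehicle signal from 1 library. Its reads were 25, 5 and 12 in rich vehicle, 12, 12 and 8 in rich bafilomycin, 4, 0 and 13 in depleted vehicle, and 24, 9 and 44 in depleted bafilomycin libraries. Replicate 1 of rich vehicle stood at 1.86 CPM, above the 0.133 and 0.314 CPM of the other 2. The groups overlapped in every comparison. The log2 fold change was -2.26 ± 1.09 (SE) on depletion in vehicle, or -0.64 without replicate 1 of rich vehicle. Bafilomycin A1 gave -1.49 ± 1.03 in rich medium, or 0.13 without that library, and 2.16 ± 1.05 in depleted medium. The depleted-medium value was 1.19 without replicate 3 of depleted bafilomycin and 3.78 without replicate 3 of depleted vehicle, and without the latter library depletion in vehicle gave -3.89.

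MT1F had no lower mean in depleted than in rich vehicle. The other 3 tested metallothioneins had a lower mean, and of these only MT1X had vehicle groups that did not overlap. It held 12, 16 and 52 reads in rich vehicle (0.893, 0.424 and 1.36 CPM) and 32, 34 and 43 in depleted vehicle libraries (0.650, 0.949 and 1.16 CPM). With bafilomycin A1 it held 68, 81 and 75 reads in rich medium (1.55, 1.66 and 1.99 CPM) and 120, 38 and 47 in depleted medium (2.21, 0.899 and 1.40 CPM). All rich bafilomycin libraries lay above all rich vehicle libraries, and the groups overlapped in the other comparisons. The log2 fold change was 0.04 ± 0.47 (SE) on depletion in vehicle, 0.95 ± 0.47 for bafilomycin A1 in rich medium and 0.72 ± 0.46 in depleted medium. The depletion value ran from -0.33 (without replicate 2 of rich vehicle) to 0.57 (without replicate 3 of rich vehicle). The rich-medium value ran from 0.59 (without replicate 2 of rich vehicle) to 1.49 (without replicate 3 of rich vehicle). The depleted-medium value ran from 0.32 (without replicate 1 of depleted bafilomycin) to 0.98 (without replicate 2). Its effective length was 194 bases in replicate 1 of rich vehicle and 236 to 259 bases in the other 11 libraries.

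MT1G and MT1M were detected above a few reads in a single library. Replicate 1 of rich vehicle held 38 reads of MT1G (2.83 CPM) and 10 reads of MT1M (0.744 CPM). The other 11 libraries held at most 6 reads of MT1G and at most 2 of MT1M. In depleted vehicle libraries both genes had 0 reads, which is below the 3-read limit of detection. A fold change between groups would compare values at or under that limit, or rest on that 1 library, and none is given.

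The summed level of the 21 metallothionein genes was 10.1, 1.72 and 3.88 CPM in rich vehicle, 5.17, 5.02 and 4.33 CPM in rich bafilomycin, 1.08, 1.31 and 2.89 CPM in depleted vehicle, and 6.09, 1.96 and 7.24 CPM in depleted bafilomycin libraries. Replicate 1 of rich vehicle was the highest of all 12 although it was the shallowest. The means were 5.24 ± 4.36 CPM in rich vehicle, 5.10 ± 2.77 in depleted bafilomycin, 4.84 ± 0.45 in rich bafilomycin and 1.76 ± 0.99 in depleted vehicle. In that order the neighbours rich vehicle and depleted bafilomycin overlapped, as did depleted bafilomycin and rich bafilomycin. The lowest rich bafilomycin library lay above the highest depleted vehicle library. Fitted as 1 gene, the sum had a log2 fold change of -1.54 ± 0.59 (SE) on depletion in vehicle and 1.54 ± 0.58 for bafilomycin A1 in depleted medium. It had -0.07 ± 0.57 for bafilomycin A1 in rich medium and 0.07 ± 0.56 for depletion under bafilomycin A1. Without replicate 1 of rich vehicle, depletion in vehicle gave -0.68 and bafilomycin A1 in rich medium gave 0.79.

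**Figure D2:**
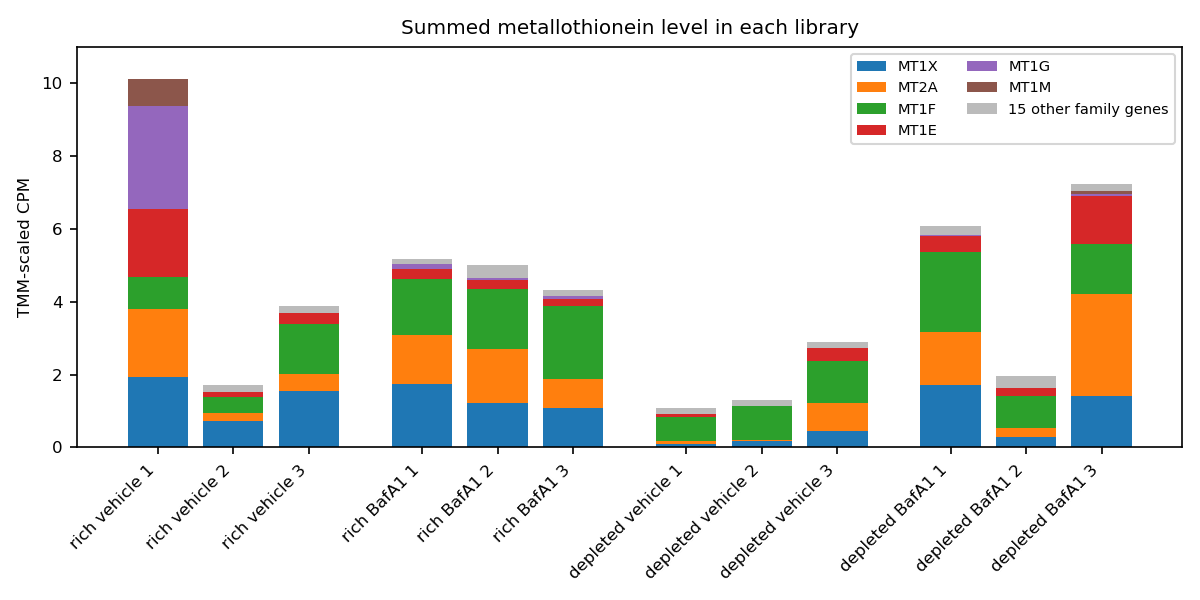
Summed metallothionein level (vertical axis, TMM-scaled CPM, linear from 0) in each of the 12 libraries (horizontal axis), with a colour per gene and grey for the 15 other family genes. The bars reach 10.1 CPM in replicate 1 of rich vehicle, where MT1G, MT1E and MT1M take a larger part than in the other rich vehicle libraries, and stay between 1.08 and 2.89 CPM in depleted vehicle.

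The metallothionein genes spread more between replicates than the other members. The biological coefficient of variation fitted by edgeR was 0.78 for MT2A, 0.79 for MT1E, 0.52 for MT1X and 0.37 for MT1F, against a trend at their levels of 0.43, 0.49, 0.42 and 0.40. It was 0.15 for MTF1 and 0.17 for SLC30A1, close to the trend of 0.21 and 0.17. Over the 12 libraries, Pearson's r of log2 CPM was 0.87 between MT1E and MT2A and 0.85 between MT1X and MT2A. It was 0.72 between MT1E and MT1X and at most 0.60 between MT1F and any of these. These points share the libraries and their depth, and reads may be split between the copies, so the values are a description. The r between MT1X and SLC30A1 was -0.70.

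Counts of called members are set beside the share of all 18047 genes tested. The call was an edgeR p-value under 0.05 after Benjamini-Hochberg adjustment. Depletion in vehicle called 30.9% of all genes (15.5% higher, 15.4% lower), and among the 6 tested members it called SLC30A1 as higher and MT1X as lower. Bafilomycin A1 in depleted medium called 11.4% of all genes (5.5% higher, 5.91% lower) and 1 of the 6, MT1X, as higher. In rich medium it called 10.9% of all genes (6.15% higher, 4.78% lower) and 0 of the 6. Depletion under bafilomycin A1 called 24.1% (10.5% higher, 13.6% lower) and 0 of the 6. For these last 2 comparisons DESeq2 also called 0 of the 6, and 0 had an unadjusted p under 0.05. The interaction subtracts the rich-medium response to bafilomycin A1 from the depleted-medium response. It called 6.18% of all genes (2.35% higher, 3.83% lower) and 0 of the 6, while DESeq2 called 1 and 3 had an unadjusted p under 0.05. On depletion in vehicle the groups did not overlap for 3 of the 6 (41.2% of all genes, 23% higher and 18.2% lower), which were SLC30A1, MT1X and MTF1. With bafilomycin A1 in depleted medium this held for MTF1 (39.9% of all genes, 19.8% higher and 20.1% lower), and in rich medium for MT1F (26% of all genes, 14.9% higher and 11.1% lower). On depletion under bafilomycin A1 it held for SLC30A1 (47.1% of all genes, 23.4% higher and 23.8% lower). Nothing is read from these member counts, or from member calls kept or lost in other fits, since the members were chosen on the same values. The fitted SLC30A1 value for depletion in vehicle ran from 0.68 to 1.05 over the 12 fits that left out 1 library. The MT1X call on depletion was lost without replicate 1 of depleted vehicle, where its value was -2.11. The MT1X call for bafilomycin A1 in depleted medium was lost in 7 of the 12 fits that left out 1 library, namely any of the 3 rich bafilomycin libraries, replicate 1 or 2 of depleted vehicle, and replicate 1 or 3 of depleted bafilomycin. It was lost too with the effective length as an offset, and its values without 1 library ran from 1.83 to 3.22.

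**Figure D3:**
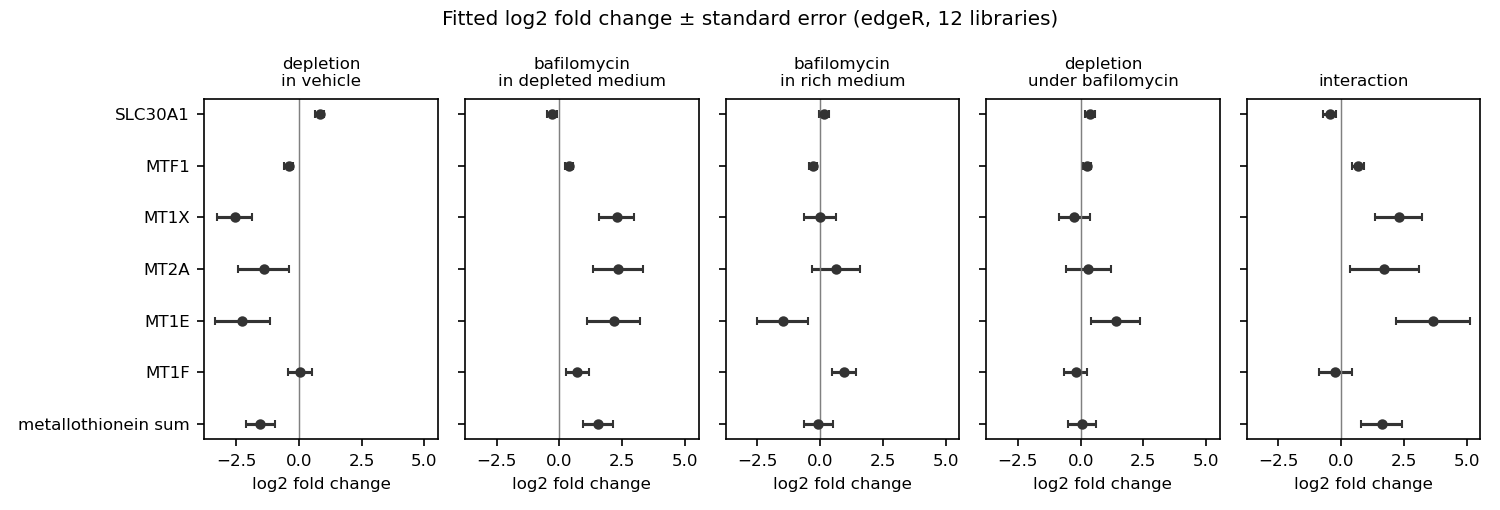
Fitted log2 fold change (horizontal axis) with its standard error (bars) for the 6 tested members and the metallothionein sum (vertical axis) in the 5 comparisons (panels), from 1 edgeR fit of 12 libraries. MT1X, MT2A and MT1E lie at -2.55, -1.41 and -2.26 on depletion in vehicle and at 2.28, 2.34 and 2.16 for bafilomycin A1 in depleted medium, with standard errors of 0.69 to 1.09, while MTF1 and SLC30A1 have far narrower errors.

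The genes whose log2 CPM pattern over the 12 libraries was most like that of a member were listed by Pearson's r, leaving out genes that averaged under 5 CPM. For SLC30A1 these were PELI2 (r = 0.92), ST6GAL1 (0.92), MYO9A (0.91), RNF170 (0.91) and the readthrough locus SUGT1P4-STRA6LP-CCDC180 (0.91). For MT2A they included PPTC7 (0.91), SOWAHC (0.89), JRKL (0.87) and CRK (0.85). For MT1X they were PPP1R7 (0.88), ASAH2B (0.87), LRRC59 (0.86), PPP2CB (0.85) and ACAT2 (0.85). The points share libraries, groups and depth, and the genes were picked as the highest of all values computed.

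Among the other zinc exporters, SLC30A4 (ZnT4, which loads zinc into vesicles and lysosomes) rose in all 4 pairwise comparisons. It measured 2.01, 2.97 and 2.65 CPM in rich vehicle, 9.12, 6.54 and 9.72 in rich bafilomycin, 10.04, 8.82 and 11.1 in depleted vehicle, and 22.9, 35.5 and 42.8 CPM in depleted bafilomycin libraries. No rich vehicle library reached any other group, and the depleted bafilomycin libraries were the highest. The log2 fold change was 1.70 ± 0.25 (SE) for bafilomycin A1 in rich medium (edgeR adjusted p = 0.00125), 1.75 ± 0.24 in depleted medium (0.000485), 1.94 ± 0.26 for depletion in vehicle (9e-05) and 1.99 ± 0.24 for depletion under bafilomycin A1 (7.42e-05). The comparisons share groups and are not independent. The calls were kept without each library in turn, and with the effective length as an offset the value for bafilomycin A1 in rich medium was 1.09, still called. Of the 9 exporters tested (of 10 listed, SLC30A1 not among them), 3 rose and none fell on depletion in vehicle, where 15.5% of all genes rose and 15.4% fell, with a median log2 fold change of 0.29 against 0.04 over all genes. The other 2 were SLC30A10, known mainly as a manganese exporter (1.99 ± 0.53, edgeR adjusted p = 0.00998), and TMEM163, a vesicular zinc transporter (1.87 ± 0.42, 0.0037). SLC30A10 measured 1.19, 0.265 and 0.236 CPM in rich vehicle, and its value was 2.94 without replicate 1 of that group. It was not called with only the 6 libraries compared (adjusted p = 0.0578, the highest over its alternatives, which began at 9.18e-05).

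With bafilomycin A1 in depleted medium 3 exporters rose and 1 fell, against 5.5% and 5.91% of all genes, with a median of 0.32 against -0.03 over all genes. SLC30A7 (ZnT7, of the Golgi) rose by 1.08 ± 0.24 (SE) from 55.4 to 117 CPM (edgeR adjusted p = 0.0101), a call lost without replicate 2 of depleted bafilomycin (adjusted p = 0.0553, alternatives from 1.19e-06). SLC30A2 (ZnT2, vesicular) fell by 1.08 ± 0.30 from 6.90 to 3.26 CPM (edgeR adjusted p = 0.0317). That call was lost without replicate 2 or 3 of depleted vehicle or any of the 3 depleted bafilomycin libraries (adjusted p from 0.0619 to 0.133). Depletion under bafilomycin A1 raised 3 exporters and lowered 1 (10.5% and 13.6% of all genes), with a median of 0.49 against 0.01 over all genes. Bafilomycin A1 in rich medium raised 1 and lowered none (6.15% and 4.78% of all genes), with a median of 0.12 against 0.02. SLC30A5, the partner of secretory-pathway zinc loading, rose by 0.97 ± 0.16 on depletion under bafilomycin A1 (edgeR adjusted p = 0.000737). In the interaction 0 exporters were called by edgeR and 1 by DESeq2, 5 had an unadjusted p under 0.05, and the fit with the replicate number as a block called 2.

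Of the 13 importers tested of 14 listed, 4 rose and 3 fell on depletion in vehicle, beside 15.5% and 15.4% of all genes, with a median log2 fold change of -0.31 against 0.04 over all genes. SLC39A5 (ZIP5, a basolateral importer of enterocytes) measured 28.8, 46.6 and 40.9 CPM in rich vehicle and 154, 175 and 181 CPM in depleted vehicle libraries, a rise of 2.13 ± 0.25 (SE, edgeR adjusted p = 5.02e-05). Bafilomycin A1 in rich medium raised it by 1.14 ± 0.25 (edgeR adjusted p = 0.00914), and in depleted medium its value was -0.23 ± 0.24, not called. The rich-medium value was 0.56 without both libraries that stood apart, where the call was lost, as it was with only the 6 libraries compared (adjusted p from 0.0551 to 0.0593). SLC39A4 (ZIP4, the apical importer of dietary zinc) fell by 2.22 ± 0.30 on depletion under bafilomycin A1, from 11.8 to 2.53 CPM (edgeR adjusted p = 0.000148), and by 0.90 ± 0.29 on depletion in vehicle, from 8.26 to 4.46 CPM (edgeR adjusted p = 0.0276). The vehicle call was lost without replicate 2 or 3 of rich vehicle, without replicate 1 or 3 of depleted vehicle and with the effective length offset (adjusted p from 0.0622 to 0.132). SLC39A10, a plasma membrane importer, fell in all 4 pairwise comparisons, from 215 CPM in rich vehicle to 58.9 CPM in depleted bafilomycin libraries. Its fall of 0.86 ± 0.19 with bafilomycin A1 in rich medium was not called without both libraries that stood apart (adjusted p = 0.092, alternatives from 0.00032).

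**Figure D4:**
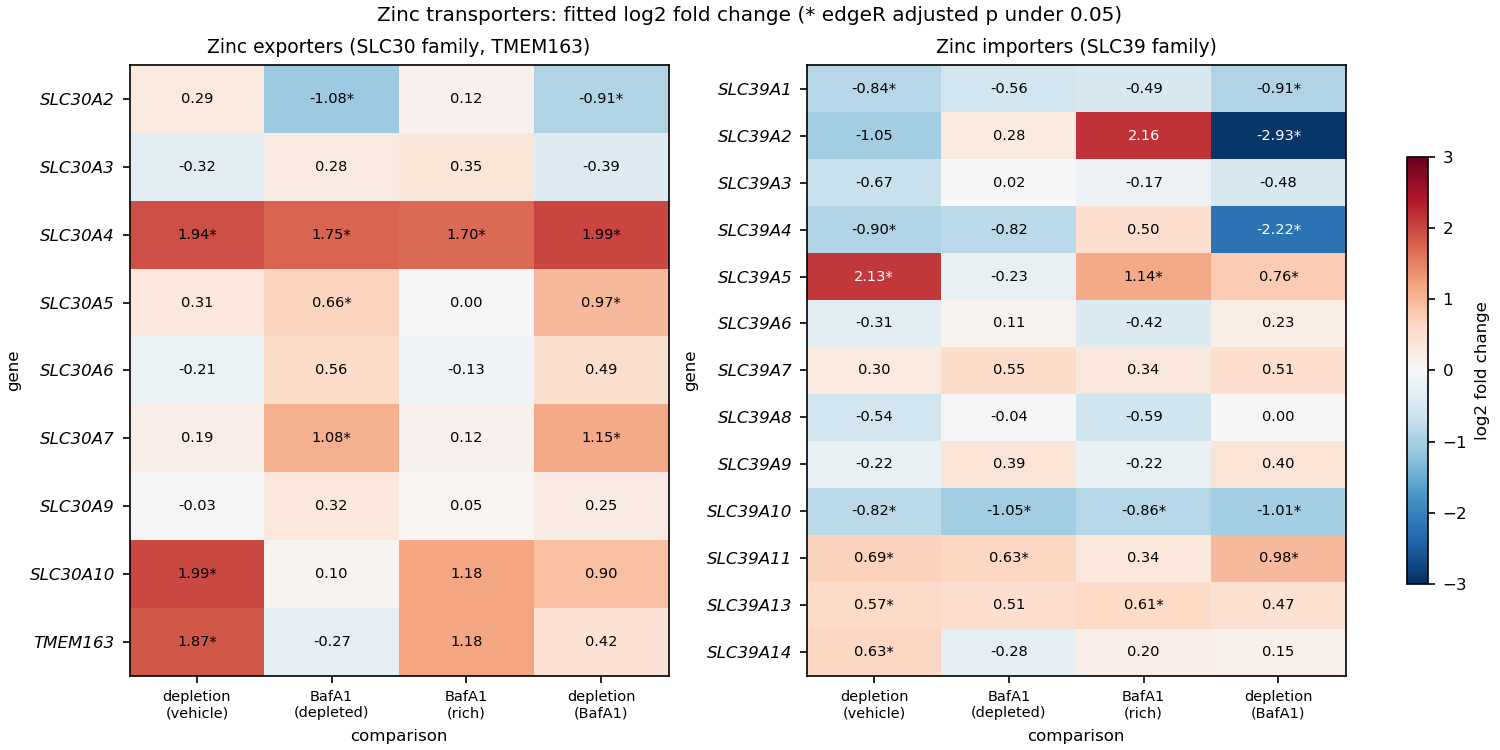
Fitted log2 fold change (colour and printed value) of the tested zinc exporters (left, 9 genes) and importers (right, 13 genes) in the 4 pairwise comparisons (columns), with an asterisk at an edgeR adjusted p under 0.05. SLC30A4 is positive and SLC39A10 negative in every column, and SLC39A5 is positive in all but bafilomycin A1 in depleted medium.

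Bafilomycin A1 in depleted medium raised 1 importer and lowered 1 (5 called with the replicate block), in rich medium it raised 2 and lowered 1, and depletion under bafilomycin A1 raised 2 and lowered 4. Over all genes these comparisons raised 5.5%, 6.15% and 10.5% and lowered 5.91%, 4.78% and 13.6%. The importers' medians were 0.02, 0.20 and 0.15, against -0.03, 0.02 and 0.01 over all genes. The list of 13 copper genes is given because metallothioneins also bind copper. Of these, 2 rose and 1 fell with bafilomycin A1 in depleted medium (6 called with the replicate block, 11.4% of all genes called), where the copper importer SLC31A1 rose by 0.80 ± 0.17 (SE, edgeR adjusted p = 0.00737) and the copper pump ATP7A by 0.83 ± 0.18 (0.00963). The ATP7A call was lost without replicate 2 or 3 of depleted bafilomycin (adjusted p from 0.0558 to 0.0574). In rich medium neither edgeR nor DESeq2 called a copper gene (0 of 13), and 2 had an unadjusted p under 0.05. The list's medians were 0.09 in depleted and -0.06 in rich medium. Depletion raised 1 copper gene and lowered 1 in vehicle (30.9% of all genes called). Under bafilomycin A1 it raised 3 and lowered 2 (24.1% called). ATP7A rose in both, by 0.88 ± 0.19 and 1.30 ± 0.19 (edgeR adjusted p = 0.00268 and 0.000223). SLC31A1 rose on depletion under bafilomycin A1 by 0.83 ± 0.17 (edgeR adjusted p = 0.0027).

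The 11 genes of heavy metal and electrophile stress include enzymes of glutathione synthesis and heat shock genes that metals induce. Depletion in vehicle raised 3 and lowered 4, beside 15.5% and 15.4% of all genes, with a median of 0.05 against 0.04 over all genes. Bafilomycin A1 in depleted medium raised GCLC and GCLM, the 2 subunits of the enzyme that limits glutathione synthesis, by 0.96 ± 0.14 and 0.89 ± 0.25 (SE, edgeR adjusted p = 0.000623 and 0.032), with a list median of 0.34 against -0.03 and 11.4% of all genes called. Depletion in vehicle had lowered GCLM (log2 fold change -1.21 ± 0.25, edgeR adjusted p = 0.0022). Its means were 46.5 CPM in rich vehicle, 28.7 in rich bafilomycin, 20.0 in depleted vehicle and 37.0 in depleted bafilomycin libraries. The GCLM call for bafilomycin A1 in depleted medium was lost without any of the 3 depleted vehicle libraries and without replicate 2 or 3 of depleted bafilomycin (adjusted p from 0.0572 to 0.113). With the replicate block 4 genes of the list were called there. In rich medium edgeR called 0 of the list, DESeq2 called 1 and the replicate block called 2, with 3 at an unadjusted p under 0.05. HMOX1, a further metal-induced gene, had 0.59 ± 0.19 in rich and 0.52 ± 0.19 in depleted medium with bafilomycin A1, neither called. Glucocorticoids also induce metallothionein genes, and of 10 glucocorticoid-responsive genes bafilomycin A1 raised 4 and lowered 1 in rich medium (10.9% of all genes called) and raised 2 and lowered 1 in depleted medium (11.4% called). Depletion raised 4 and lowered 2 in vehicle (30.9% of all genes called) and raised 3 and lowered 3 under bafilomycin A1 (24.1% called). In vehicle it lowered FKBP5 (log2 fold change -1.66 ± 0.21) and raised NR3C1, the glucocorticoid receptor (1.09 ± 0.21, edgeR adjusted p = 8.49e-05 and 0.0012). With bafilomycin A1, TSC22D3 rose by 2.52 ± 0.36 in rich and 1.56 ± 0.32 in depleted medium (edgeR adjusted p = 0.00095 and 0.00634). It also rose on depletion in vehicle, by 1.69 ± 0.36 (edgeR adjusted p = 0.00257). Its means were low, at 0.490 CPM in rich vehicle, 2.79 in rich bafilomycin, 1.57 in depleted vehicle and 4.65 in depleted bafilomycin libraries. FKBP5 fell by 0.86 ± 0.21 with bafilomycin A1 in rich medium (edgeR adjusted p = 0.0177). The FKBP5 call was lost without replicate 1 of rich vehicle, without replicate 3 of rich bafilomycin, without both and with only the 6 libraries compared (adjusted p from 0.0599 to 0.143).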

How the data were processed

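RNA of 12 Caco-2 libraries was ribosome-depleted and made into stranded libraries, per the labels' protocols. The authors deposited, per the file headers, estimated counts, TPM (scaled by effective length) and gene lengths for each library. They also deposited a series-wide table of whole-number counts for 13518 genes, which holds 1 metallothionein gene and was used only as an alternative. DRAGEN and GRCh38 are named in the submitters' processing notes. The sources used here do not give the strand setting or the annotation release. Groups were taken from the labels. The design text names 3 of the 4 groups, and the depleted vehicle group is in the sample labels.

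Estimated counts were rounded, filtered with filterByExpr (minimum count 10, minimum total 15), which kept 18047 genes, and scaled by TMM. The 5 comparisons used edgeR 4.0.16 (R 4.3.3) robust quasi-likelihood tests, the 12 libraries fitted together (8 residual degrees of freedom), adjusted by Benjamini-Hochberg over all genes kept. SEs were derived from the fold change and the F statistic. The scripts were tested on simulated data. The 8 genes and all gene lists were chosen with earlier results of these data known. The adjusted p-values printed for list genes do not account for that choice, nor for naming the largest called changes. Named genes were the 8, any other metallothionein averaging 1 CPM, up to 3 called genes per list and comparison with the largest fold changes and at least 1 CPM (not all of these are printed), and the 5 genes most like MT2A, MT1X and SLC30A1 (some are not reported here). Stress-list genes named for their role and not by that rule, such as HMOX1, were added after their values were seen. Motifs were chosen from knowledge of metal response elements.

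Replicate numbers are shared by the groups in the labels, which do not say what a number marks. Same-numbered deviations from the group means correlated at 0.10 to 0.21 for bafilomycin A1 in rich medium, 0.30 to 0.56 in depleted medium and 0.28 to 0.55 for depletion in vehicle, all above 0.1, but at -0.15 to 0.06 for depletion under bafilomycin A1. Alternatives were DESeq2 1.42.0 size factors and test, no filter, only the 6 libraries compared, the replicate block, the series-wide table, an effective length offset, dropping small RNA, ribosomal and mitochondrial genes, removal of the 2 libraries that stood apart, summing the metallothioneins and leaving out each library.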

Additional observations from a re-analysis of the deposited data

Results flagged for a closer look

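The response to bafilomycin A1 differed between the 2 media in the interaction test of edgeR for 4 genes of the lists. These were 1 of 13 importers, 2 of 11 stress genes and 1 of 10 glucocorticoid-responsive genes. Of the 9 exporters and 13 copper genes 0 were called. Over all genes the test called 6.18%, and nothing about the lists is read from these counts. The zinc importer SLC39A5 had a difference of -1.37 (log2, depleted minus rich response, adjusted p = 0.0309). Its response was 1.14 in rich and -0.23 in depleted medium. The glutathione synthesis genes GCLM and GCLC had differences of 1.57 (adjusted p = 0.0186) and 0.69 (adjusted p = 0.046), and SGK1, a glucocorticoid-responsive kinase, had -0.97 (adjusted p = 0.0313). The call was kept in 10 of the 12 fits without 1 library for GCLM, in 4 for SLC39A5, in 4 for SGK1 and in 2 for GCLC. GCLM lost its call without replicate 1 of depleted vehicle or replicate 2 of depleted bafilomycin. SLC39A5 lost it without replicate 1 of rich vehicle, replicate 3 of rich bafilomycin or any of the 6 depleted libraries, and SGK1 without replicate 1 or 2 of rich bafilomycin or any of the 6 depleted libraries. GCLC kept it only without replicate 2 or 3 of rich vehicle among these 12 fits. Without both libraries that stood apart the difference was -0.79 for SLC39A5 and 1.03 for GCLM, both still called, and GCLC was not called. The calls that were lost had adjusted p up to 0.0558 for GCLM, 0.0761 for SLC39A5, 0.102 for SGK1 and 0.134 for GCLC. None of the 6 tested genes of the set was called in the interaction by edgeR.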

How the results depend on the processing

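No result changed direction in a way that reversed a call. Depletion in vehicle called 5577 genes, and 3748 to 6075 without 1 library. Bafilomycin A1 in rich medium called 1971 genes, 496 with only the 6 libraries compared, 1010 without both libraries that stood apart and 1012 to 2656 without 1 library. In depleted medium it called 2058, then 4259, 3444 and 878 to 3074 under the same settings. Depletion under bafilomycin A1 called 4352, and 2346 to 5499 without 1 library. The interaction called 1116, 1983 with the DESeq2 test, 1792 without the filter, 1969 with the replicate block and 393 to 1844 without 1 library. With the replicate block the other comparisons called 2832 (bafilomycin A1 in rich medium), 3014 (in depleted medium), 6504 (depletion in vehicle) and 5319 genes. Among the 6 tested members the block changed no call. Where numbers paired the samples, each sample correlated best with its own number, as a hint from the data. Of 1104 values of named list genes under alternatives, 99 lost their call and 1005 kept it. Of 708 values of members and their sum, 31 moved by more than 1 SE. Calls of members and of their sum are a description only, since the members were chosen on these values. Calls gained were MT2A and MT1E on depletion in vehicle and MT2A for bafilomycin A1 in depleted medium without replicate 3 of depleted vehicle. Without the filter they were MT2A for bafilomycin A1 in depleted medium and MT1E on depletion in vehicle and in the interaction. SLC30A1 was gained on depletion under bafilomycin A1 with only the 6 libraries, and by the DESeq2 test MTF1 in the interaction. MT1G, outside the filter, was called by DESeq2 on depletion in vehicle, where its reads lie in 1 library. The family sum was called on depletion in vehicle in 3 fits without 1 library (rich vehicle 2, depleted vehicle 3 or depleted bafilomycin 2), and for bafilomycin A1 in depleted medium without rich vehicle 1. Without the filter it was called in both and in the interaction. The cause was not tested. With at most 331 family reads in a library, counting error limits every metallothionein value. Replicates also spread beyond it, with fitted biological coefficients of variation of 0.37 for MT1F, 0.52 for MT1X, 0.78 for MT2A and 0.79 for MT1E.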
